A study of Homo sapiens with 18 samples.

Results

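Gene expression in Raji was compared with that in Namalwa, 2 human Burkitt lymphoma cell lines, over every gene that had a probe set naming that gene alone. The members are the 3 samples titled Raji and the 3 titled Namalwa, 6 of the 18 arrays of the series, and the comparison covered 18417 genes. Both lines were untreated and were grown in RPMI medium with 10% fetal calf serum. From each sample, 250 ng of total RNA was copied with a whole-transcript kit, labelled with biotin and hybridised to an Affymetrix array. The remaining 12 arrays hold the Hodgkin lymphoma line L428 and its derivative L428-PAX5, which can be induced to make the B-cell factor PAX5, each in 2 groups of 3, given mifepristone alone or mifepristone with 5-aza-2'-deoxycytidine and trichostatin A. Of these, L428+M (L428 given 0.25 nM mifepristone, with a treatment time of 5 days) is shown beside the Burkitt lines as a reference level, and the rest entered the fit for its estimate of spread. Where a Burkitt line is set against L428+M, line and agent cannot be told apart, because mifepristone was given to L428 alone of the 3. Each Burkitt line stands for itself, and any difference is one between these 2 lines. The labels do not say whether the 3 replicates of a line were separate cultures, and p-values then cover only the spread between samples, which could be technical.

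Burkitt lymphoma is a fast-growing tumour of germinal-centre B cells in which a chromosomal translocation places MYC under the control of an immunoglobulin locus. Germinal-centre B cells carry the surface antigen CD20 (MS4A1), the B-cell receptor with its CD79 chains and the repressor BCL6, and they leave this state for the plasma cell when IRF4, PRDM1 and XBP1 take over. Both lines are known to carry Epstein-Barr virus (EBV), whose membrane protein LMP1 acts like an active CD40 receptor and switches on NF-kB. Namalwa is also known as a line used to produce interferon after infection with a virus.

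The deposited values are log2 signals, so a difference of 1 is 2-fold, and they are written below as Raji minus Namalwa with the standard error (SE) of the fit, n = 3 arrays per line. A gene passed when its limma p-value, adjusted by the Benjamini-Hochberg method over all 18417 genes, was below 0.05. Across genes, replicate arrays correlated with r from 0.9852 to 0.9961 in Raji and from 0.9877 to 0.9952 in Namalwa, and no 2 arrays were identical. Replicate 3 had the lower correlations in both lines, and counts without the 2 arrays numbered 3 are given beside the main counts. Signal near the floor of an array is compressed, so differences of dim genes are understated. In bulk RNA, fewer cells expressing a gene and less of its RNA per cell cannot be told apart.

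The 2 lines differed widely. Of 18417 genes, 3545 passed (19.2%), 1426 higher in Raji (7.74%) and 2119 lower (11.5%). At least 2-fold differences that passed numbered 1431 (7.77%), of which 499 were higher in Raji (2.71%) and 932 lower (5.06%). Differences of at least 16-fold were seen in 25 genes higher in Raji and 54 lower. The Raji and Namalwa values did not overlap for 6830 genes (37.1%), with all Raji values above for 3317 (18%) and all below for 3513 (19.1%). Without the 2 arrays numbered 3, 2650 genes passed, 978 higher and 1672 lower, and 1448 were at least 2-fold apart. The split between directions depended on scaling: with each array's median subtracted, 1958 genes were higher in Raji and 1707 lower, since this moved the median difference over all genes from 0.04 to 0.14.

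**Figure D1:**
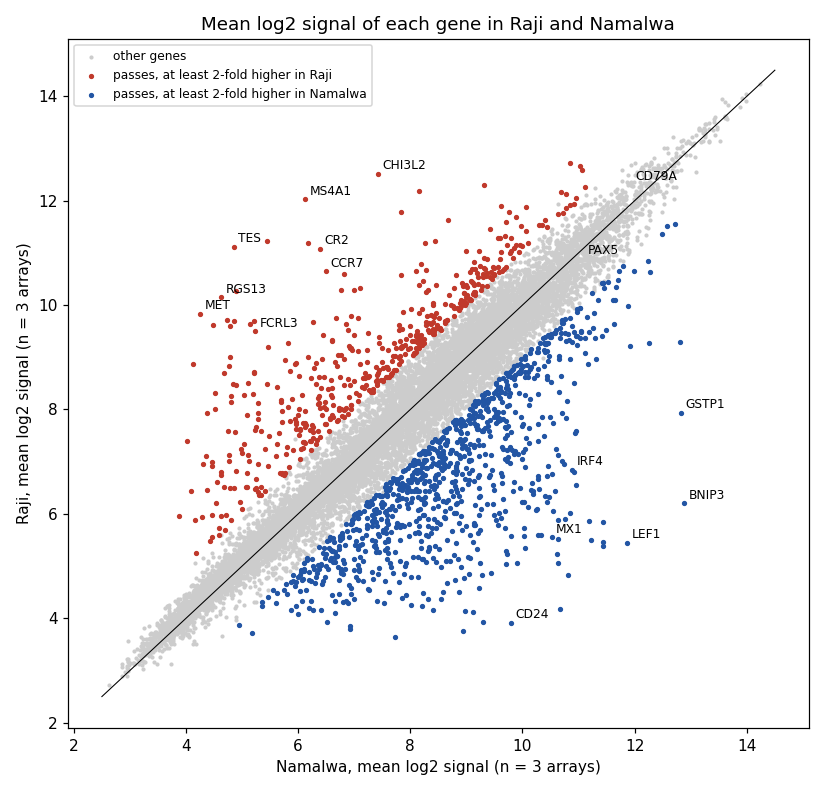
Mean log2 signal of each of the 18417 genes in Namalwa (x axis) and Raji (y axis), 3 arrays each, with equality as the diagonal line. Red points passed and were at least 2-fold higher in Raji (499 genes), blue points passed and were at least 2-fold higher in Namalwa (932 genes), and labelled genes include TES and MS4A1 far above the line, BNIP3 and LEF1 far below it, and PAX5 and CD79A close to it.

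The largest differences in favour of Raji were those of TES, a focal adhesion protein, and of MS4A1, which encodes CD20. TES had log2 signals of 11.08, 11.03 and 11.25 in Raji and 4.82, 4.39 and 5.33 in Namalwa, a 77.3-fold difference (6.27 ± 0.18, adjusted p = 1.93e-14). MS4A1 had 11.82, 11.88 and 12.38 in Raji and 5.78, 5.90 and 6.72 in Namalwa, a 59.6-fold difference (5.90 ± 0.25, adjusted p = 1.38e-12). On every Raji array both genes lay above 7.18, the median of all gene values, and on every Namalwa array below it. The next in size were the mitochondrial adenylate kinase AK4 (5.76 ± 0.22, or 3.11 with the mean of its probe sets), the receptor tyrosine kinase MET (5.57 ± 0.38), RGS13, a regulator of G-protein signalling in germinal-centre B cells (5.51 ± 0.31), the glutamate receptor auxiliary protein NETO2 (5.38 ± 0.16) and the mitochondrial carrier SLC25A27 (5.14 ± 0.23). CHI3L2, a chitinase-like secreted protein, was 34.5-fold higher in Raji and the intermediate filament vimentin (VIM) 32.1-fold. Vimentin had 11.09, 11.10 and 11.36 in Raji against 6.26, 6.05 and 6.23 in Namalwa. The list of the 15 largest was completed by RGS1 (4.98), SPARCL1 (4.83), MAP7D3 (4.81), the RNA-binding protein BICC1 (4.75), the complement and EBV receptor CR2 (4.69) and the inositol phosphatase MINPP1 (4.49).

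In the other direction the largest difference was that of BNIP3, a mitochondrial protein of mitophagy and of the response to low oxygen. BNIP3 had 6.09, 6.25 and 6.26 in Raji and 12.78, 12.83 and 13.03 in Namalwa, a 102-fold difference (-6.68 ± 0.13, adjusted p = 6.78e-17). The cytoskeletal protein EPB41L2 (-6.5 ± 0.15) and LEF1, the nuclear partner of beta-catenin in Wnt signalling (-6.40 ± 0.19), followed. LEF1 had 5.18, 5.5 and 5.68 in Raji and 11.75, 11.84 and 11.98 in Namalwa. All Raji values of BNIP3 and LEF1 lay below the median of all gene values and all Namalwa values far above it. The interferon-induced IFI44L (-6.06 ± 0.34), the chaperone HSPA4L (-6.00 ± 0.21), the annexin partner S100A10 (-5.96 ± 0.16) and its relative S100A11 (-5.57 ± 0.26) were also among the 15 largest, together with CD24 (-5.87), MPP1 (-5.73), ATXN7L1 (-5.57, or -4.14 with the mean of its probe sets), SAMD9L (-5.37), the glutathione transferase MGST1 (-5.36), the nutrient-sensing GTPase RRAGD (-5.32), the let-7 inhibitor LIN28B (-5.18) and the amyloid precursor APP (-5.13).

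Some of these genes lie next to one another when the measured genes are put in RefSeq gene order. Genes that were not measured are skipped, so a neighbour here is the nearest measured gene. RGS1 and RGS13 are neighbours on chromosome 1 and were both higher in Raji, while RGS2, on the other side of RGS13, was lower (-1.16 ± 0.26, adjusted p = 0.00267) and RGS18 did not pass (-0.38). On chromosome 7, MDFIC (1.23), TFEC (2.76) and TES (6.27) were higher in Raji in succession, CAV1 beside them did not pass (0.10), and MET, the next gene, was higher again (5.57). S100A10 and S100A11 are neighbours on chromosome 1, and neither THEM4 before them (0.51) nor TCHHL1 after them (0.23, not passing) was lower in Raji. These neighbours were named after their values were seen.

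The labels were checked against markers of cell type. Such markers concern lineage and cannot tell which samples are Raji and which are Namalwa. The B-cell markers PAX5, CD79A, CD79B, CD22 and BLNK had mean log2 signals from 9.85 to 12.30 for Raji and 10.13 to 11.93 for Namalwa. Their L428+M means were 5.37 to 7.49. MS4A1, also a B-cell marker, did not share this pattern. Its Raji mean was 12.03, but its Namalwa mean of 6.13 lay below 7.18, the median of all gene values. PAX5 overlapped between the Burkitt lines and did not pass, with 10.97, 10.94 and 10.77 in Raji and 11.31, 11.07 and 10.85 in Namalwa (-0.18 ± 0.30, adjusted p = 0.794). Of the germinal-centre markers that define Burkitt cells, MME, BCL6, CD38, TCL1A, MYBL1, MYC and MKI67 were all bright in both lines. MYC had 11.41, 11.5 and 11.91 in Raji and 11.84, 11.85 and 11.87 in Namalwa (-0.25 ± 0.15, adjusted p = 0.318), and the proliferation marker MKI67 differed by -0.07. None of 12 T-cell, 8 NK-cell, 9 fibroblast or 8 epithelial markers passed limma in either direction, and 0 of them had an unadjusted p below 0.05. With the replicate block, 1 T-cell marker was higher in Raji. Of 11 myeloid markers 1 passed (9.09%, against 19.2% of all genes). It was FCER1G, the shared signalling chain of Fc receptors, which was lower in Raji (-0.87 ± 0.17).

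Among 25 measured B-cell surface antigens, 10 were higher in Raji (40%, against 7.74% of all genes) and 3 lower (12%, against 11.5%), with a median difference of 0.33 against 0.04 over all genes. After MS4A1, the largest was CR2, the receptor for complement C3d and for EBV. CR2 had 11.20, 11.05 and 10.99 in Raji and 6.45, 6.59 and 6.13 in Namalwa (4.69 ± 0.22, 25.8-fold, adjusted p = 8.11e-12). The inhibitory Fc receptor FCGR2B (2.01 ± 0.18), the memory marker CD27 (1.51 ± 0.18), the inhibitory lectin CD22 (1.0 ± 0.16), CD79B (0.93 ± 0.15) and CD40 (0.88 ± 0.19) were higher as well. CD79A overlapped between the lines (0.36 ± 0.16, adjusted p = 0.147). CD24, a small glycoprotein of immature and germinal-centre B cells, went the other way. CD24 had 4.6, 3.5 and 3.64 in Raji and 9.82, 10.10 and 9.44 in Namalwa (-5.87 ± 0.28, 58.6-fold lower in Raji). The low-affinity IgE receptor FCER2, or CD23, was lower in Raji (-1.31 ± 0.18), as was MME, or CD10 (-0.77 ± 0.17).

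**Figure D2:**
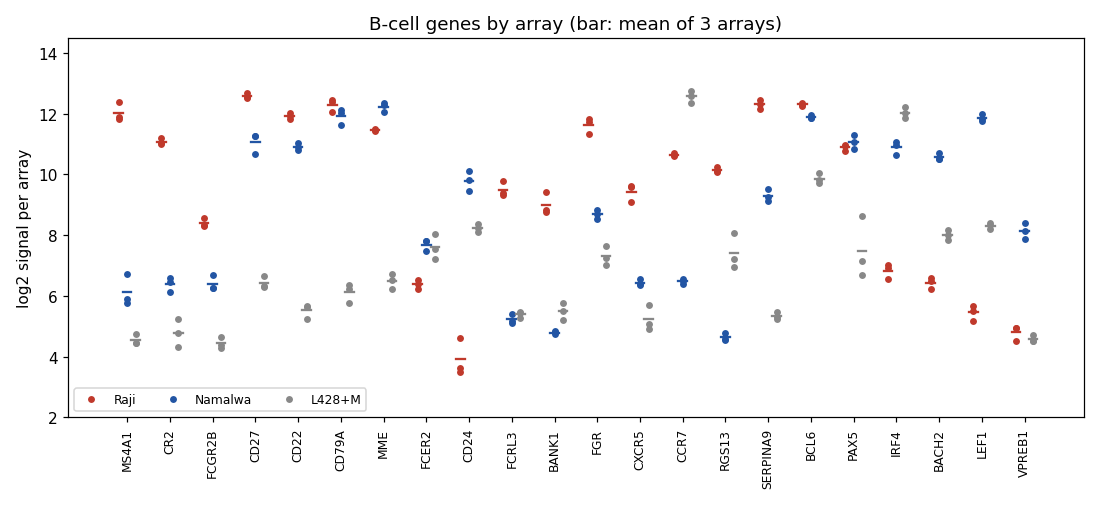
Log2 signal per array (y axis) of B-cell surface, signalling, positioning and transcription factor genes (x axis) in Raji (red), Namalwa (blue) and L428+M (grey), 3 arrays each, with a bar at the mean. The red and blue points lie far apart for MS4A1, CR2, FCRL3, BANK1, CCR7 and RGS13, where Raji is higher, and for CD24, IRF4, BACH2, LEF1 and VPREB1, where Namalwa is higher, and they overlap for PAX5 and CD79A.

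B-cell receptor signalling genes moved in both directions. Of 29 measured, 7 were higher in Raji (24.1%, against 7.74% of all genes) and 10 lower (34.5%, against 11.5%), and the second count was 6 without Raji replicate 1, without Namalwa replicate 1 or with array medians subtracted. BANK1, a scaffold that joins LYN to calcium signalling, had 8.76, 8.82 and 9.41 in Raji and 4.73, 4.80 and 4.85 in Namalwa (4.20 ± 0.19, 18.4-fold). The Src-family kinase FGR (2.94 ± 0.20) and the Ras activator RASGRP1 (2.60 ± 0.30) were also higher in Raji. Lower in Raji were the adaptor GAB1 (-1.98 ± 0.13, or -1.23 with the mean of its probe sets), PIK3CG, a catalytic subunit of phosphoinositide 3-kinase (-1.55 ± 0.17), and VAV2 (-1.22 ± 0.18). The adaptor BLNK did not pass (-0.28 ± 0.18).

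The Fc receptor-like family holds immunoglobulin-like receptors of B cells encoded on chromosome 1. Of 8 genes 5 were higher in Raji (62.5%, against 7.74% of all genes) and none lower (against 11.5%). At an unadjusted limma p below 0.05 the counts were 5 and 0. The count higher in Raji was 2 without Raji replicate 1 and 3 without Raji replicate 2, Namalwa replicate 1 or Namalwa replicate 2. FCRL3 stood apart from the rest, with 9.38, 9.31 and 9.80 in Raji and 5.12, 5.41 and 5.18 in Namalwa (4.26 ± 0.15, 19.2-fold, adjusted p = 1.23e-13). FCRL2 differed by 0.80 ± 0.18 at low signal in both lines. Immunoglobulin and its surrogate light chain, which pairs with the heavy chain in precursor B cells, had 6 measured genes. Of these, 2 were lower in Raji (33.3%, against 11.5% of all genes) and none higher (against 7.74%). The lower ones were VPREB1 (-3.34 ± 0.18) and IGLL1 (-1.45 ± 0.22). VPREB1 had 4.51, 4.95 and 4.94 in Raji and 8.13, 8.39 and 7.89 in Namalwa. The joining chain JCHAIN (-0.25 ± 0.18) and the kappa constant region IGKC (0.13 ± 0.19, below 0 without Raji replicate 1 and with the mean of its probe sets) did not pass. Immunoglobulin genes share sequence, and their signals are uncertain in that respect.

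Of 28 measured B-cell transcription factors, 10 were lower in Raji (35.7%, against 11.5% of all genes) and 4 higher (14.3%, against 7.74%). The latter count was 2 without Raji replicate 3, Namalwa replicate 2 or Namalwa replicate 3. After LEF1, the largest was BACH2, a repressor that holds B cells back from plasma-cell fate. BACH2 had 6.49, 6.59 and 6.22 in Raji and 10.71, 10.51 and 10.52 in Namalwa (-4.15 ± 0.16, 17.7-fold). IRF4, which drives plasma-cell fate, had 7.01, 6.57 and 6.92 in Raji and 11.07, 10.97 and 10.64 in Namalwa (-4.05 ± 0.16, 16.6-fold). BACH2 and IRF4, which have opposite roles, were thus both lower in Raji. RUNX3 (0.78 ± 0.19) and BCL11A (0.63 ± 0.13) were higher in Raji. The inhibitor of E proteins ID3 (-0.49 ± 0.28, adjusted p = 0.284) and its target TCF3 (-0.33 ± 0.22, adjusted p = 0.405) did not pass.

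Of 24 germinal-centre genes, 6 were higher in Raji (25%, against 7.74% of all genes) and 4 lower (16.7%, against 11.5%), with a median of 0.07. RGS13 had 10.12, 10.23 and 10.09 in Raji and 4.56, 4.57 and 4.77 in Namalwa (45.6-fold). The serine protease inhibitor SERPINA9, a germinal-centre marker, was 8.02-fold higher in Raji (3.00 ± 0.19) and the elongation factor ELL3 3.02-fold (1.60 ± 0.15). KLHL14 (-2.41 ± 0.21), the AKT cofactor TCL1A (-1.62 ± 0.19) and the DNA glycosylase NEIL1 (-0.97 ± 0.18) were lower. BCL6 had 12.25, 12.30 and 12.37 in Raji and 11.95, 11.86 and 11.87 in Namalwa. Its values did not overlap, but it did not pass (0.42 ± 0.16, adjusted p = 0.089). Fitted with the replicate block, it passed at adjusted p = 0.0472.

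The plasma-cell list was largely lower in Raji: 11 of 19 genes (57.9%, against 11.5% of all genes), with a median of -0.58. Higher in Raji was 1 gene (5.26%, against 7.74%), or 3 with the replicate block. Besides IRF4, the largest were CREB3L2, a membrane-bound factor of the secretory pathway (-3.38 ± 0.14, 10.4-fold), and the elongation factor ELL2 (-1.60 ± 0.27). CREB3L2 had 7.55, 7.75 and 7.44 in Raji and 11.08, 10.98 and 10.82 in Namalwa. PRDM1, the repressor that ends the B-cell program, was 2.11-fold lower in Raji (-1.08 ± 0.16, adjusted p = 5.19e-05), and XBP1, which expands the secretory apparatus, 1.90-fold (-0.93 ± 0.18). The degradation factors SEL1L (-1.54 ± 0.18) and DERL3 (-1.27 ± 0.18) of the endoplasmic reticulum were lower too. The surface receptor SLAMF7 was the member higher in Raji (1.05 ± 0.15). The plasma-cell surface marker SDC1 (0.08) did not pass.

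Of 22 genes known for mutation or translocation in Burkitt lymphoma, 1 was higher and 1 lower in Raji (4.55% each, against 7.74% and 11.5% of all genes). The higher one was P2RY8, a receptor that confines B cells to the germinal centre (1.39 ± 0.18). The lower one, the ubiquitin ligase subunit FBXO11 (-0.55 ± 0.15), did not pass without Raji replicate 2, without Namalwa replicate 1, without both arrays numbered 3 or with array medians subtracted. With the replicate block 4 genes of this list were lower.

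Genes that respond to EBV latency proteins, mainly to LMP1, were more often higher in Raji than lower. Of 29 measured, 15 were higher (51.7%, against 7.74% of all genes), 1 was lower (3.45%, against 11.5%) and 13 did not pass. The median was 0.73, and 12 of the 15 were at least 2-fold apart. CCR7, the receptor that draws B cells to the T zone, had 10.60, 10.64 and 10.71 in Raji and 6.4, 6.5 and 6.57 in Namalwa (4.16 ± 0.17, 17.9-fold, adjusted p = 1.18e-12). The cytokine lymphotoxin alpha (LTA) had 9.44, 9.39 and 9.14 in Raji and 6.84, 6.43 and 6.53 in Namalwa (2.73 ± 0.18). The death receptor FAS had 9.71, 9.69 and 9.87 in Raji and 6.63, 7.33 and 7.24 in Namalwa (2.69 ± 0.39). None of these 3 genes, which were named for their large differences, overlapped between the lines. Over the whole list, 21 of 29 genes did not overlap, against 37.1% of all genes. TNF (2.58 ± 0.26), which lies beside LTA, the cytokine IL10 (2.38 ± 0.15), the cytokine subunit EBI3 (2.17 ± 0.28), the activation marker CD83 (1.98 ± 0.13) and the signalling adaptor TRAF1 (1.36 ± 0.25) were also higher in Raji. BCL2A1, a survival protein (1.46 ± 0.45, adjusted p = 0.0274), did not pass without any 1 of Raji replicates 1 to 3, Namalwa replicate 1 or Namalwa replicate 2. The actin-binding protein LIMA1 was lower (-1.74 ± 0.22), and ICAM1 did not pass (-0.29 ± 0.30, adjusted p = 0.638). In L428+M, CCR7, LTA, TNF, FAS, EBI3 and TRAF1 had higher means than in either Burkitt line.

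Among 21 subunits and regulators of NF-kB, the transcription factor downstream of LMP1 and CD40, 8 were higher in Raji (38.1%, against 7.74% of all genes). The 1 lower member (4.76%, against 11.5%) was the kinase IKBKB (-0.38 ± 0.12). It did not pass without any 1 of Raji replicates 1 to 3, Namalwa replicate 1 or Namalwa replicate 2, or under either rescaling of the arrays. The higher members were feedback inhibitors and upstream signalling proteins, led by the deubiquitinase TNFAIP3 (1.52 ± 0.16), the adaptor TRAF5 (1.26 ± 0.17) and the kinase MAP3K14 (1.09 ± 0.16). TNFAIP3 had 9.76, 9.78 and 9.86 in Raji and 8.35, 8.22 and 8.29 in Namalwa. The DNA-binding subunits themselves did not pass: NFKB1 differed by -0.05, RELA by -0.01, REL by -0.02, RELB by -0.29 and NFKB2 by 0.32. The promoter of TNFAIP3 is shown because it holds matches to the NF-kB consensus. It is printed 5′ to 3′ from RefSeq (GRCh38.p14, chr6:137867009-137867308, plus strand), 250 bases before to 50 after the gene's start, with the matches, both on the opposite strand, in capitals.
TNFAIP3: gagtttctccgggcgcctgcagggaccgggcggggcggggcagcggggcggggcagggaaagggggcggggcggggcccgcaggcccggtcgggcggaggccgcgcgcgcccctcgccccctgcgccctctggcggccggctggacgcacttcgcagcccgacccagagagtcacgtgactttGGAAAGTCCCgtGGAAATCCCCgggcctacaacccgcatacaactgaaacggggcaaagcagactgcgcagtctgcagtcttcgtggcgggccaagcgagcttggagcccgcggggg
The consensus, searched on both strands, matched 5.91% of 35116 promoters of this length. It matched 4 of 22 promoters of the EBV and LMP1 list (18.2%), 2 of 13 among members higher in Raji and 2 of 8 among those not passing. A match is a description of these letters only.

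Chemokines and receptors that position B cells had 6 of 30 higher in Raji (20%, against 7.74% of all genes). The 1 lower gene (3.33%, against 11.5%) was the chemokine CCL5 (-0.95 ± 0.25), which did not pass without Raji replicate 3 or without Namalwa replicate 1. CXCR5, the receptor that leads B cells into follicles, had 9.09, 9.59 and 9.62 in Raji and 6.39, 6.57 and 6.35 in Namalwa (3.00 ± 0.25, 7.99-fold). The receptors for the T zone (CCR7), the follicle (CXCR5) and confinement in the germinal centre (P2RY8) were therefore all higher in Raji. CXCR4 (0.30) did not pass. Of 33 adhesion molecules, 8 were higher (24.2%, against 7.74% of all genes) and 7 lower (21.2%, against 11.5%). The integrin subunits of lymphocytes ITGAL (2.93 ± 0.16) and ITGB7 (2.78 ± 0.14) and the CD2-family ligand CD48 (1.80 ± 0.20) were higher in Raji. ICAM3, a ligand of the ITGAL integrin, was lower (-3.84 ± 0.29), as were the tetraspanin CD9 (-2.59 ± 0.22) and the fibronectin receptor subunit ITGA5 (-2.07 ± 0.16).

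Costimulation and checkpoint genes had 7 of 27 higher in Raji (25.9%, against 7.74% of all genes) and 4 lower (14.8%, near the 11.5% of all genes, or 2 genes without Raji replicate 3 or without Namalwa replicate 3). TNFSF8, the ligand of CD30, was 29.1-fold lower in Raji, with 5.77, 5.61 and 6.32 against 10.62, 10.70 and 10.97 in Namalwa (-4.86 ± 0.19). Its receptor CD30, TNFRSF8, did not pass (0.16 ± 0.21, adjusted p = 0.724). SLAMF1 (1.71 ± 0.20), the T-cell costimulator CD86 (1.63 ± 0.20) and CD274, or PD-L1 (1.08 ± 0.23), were higher in Raji. Among 22 receptors of the TNF superfamily, 5 were higher (22.7%, against 7.74% of all genes) and 3 lower (13.6%, near the 11.5% of all genes). After FAS and CD27, CD40 was the third of those higher in Raji, and TNFRSF21 (-2.91 ± 0.17), TNFRSF1A (-1.44 ± 0.14) and TNFRSF17, the plasma-cell receptor BCMA (-0.73 ± 0.18), were lower.

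HLA class II molecules present peptides to helper T cells, and HLA-DM and HLA-DO control the loading of those peptides. Of 15 genes measured in the class II list, 6 were higher in Raji (40%, against 7.74% of all genes) and 1 was lower (6.67%, against 11.5%). The second count was 2 with the replicate block or without Namalwa replicate 2. HLA-DMB had 11.32, 11.30 and 10.93 in Raji and 8.20, 8.50 and 8.13 in Namalwa (2.91 ± 0.20, 7.51-fold, adjusted p = 1.09e-09). HLA-DOB (2.63 ± 0.21), the thiol reductase IFI30 (1.88 ± 0.21) and HLA-DMA (1.35 ± 0.20) were higher too, so that both DM chains stood above Namalwa. IFI30 is a member of the list but not an HLA chain. The class II chains HLA-DPA1 (-0.04 ± 0.16) and HLA-DPB1 (0.24 ± 0.14) did not pass. HLA-DRB5 was lower (-1.76 ± 0.23), but class II genes share sequence and vary between genomes, and their signals are uncertain in that respect. CIITA, the master activator of class II genes, did not pass, with 8.55, 8.45 and 7.97 in Raji and 8.15, 8.06 and 8.09 in Namalwa (0.22 ± 0.18, adjusted p = 0.518). For class I and its processing pathway, 7 of 21 genes were higher (33.3%, against 7.74% of all genes) and 3 lower (14.3%, near 11.5%). The first count was 4 without Raji replicate 2 or without the 2 arrays numbered 3. The peptide transporter TAP2 (1.40 ± 0.24) and the immunoproteasome subunits PSMB9 (1.35 ± 0.16) and PSMB8 (0.91 ± 0.24) were higher. The lipid and metabolite presenters CD1D (-0.94 ± 0.14) and MR1 (-0.92 ± 0.20) and the stress ligand MICB (-0.78 ± 0.19) were lower. HLA-DOB, TAP2, PSMB8, PSMB9, HLA-DMB and HLA-DMA lie in 1 stretch of chromosome 6, where the median difference of the 50 nearest genes was 0.24 or 0.25. Not every gene there passed. TAP1, between PSMB8 and PSMB9, did not (0.61 ± 0.21, adjusted p = 0.0521), nor did HLA-DPA1 and HLA-DPB1 beyond HLA-DMA.

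Interferon response genes were shifted the other way. Of 38 measured, 17 were lower in Raji (44.7%, against 11.5%), 15 of them at least 2-fold, 3 were higher (7.89%, against 7.74%) and 18 did not pass, with a median of -0.47. IFI44L had 5.15, 5.04 and 5.95 in Raji and 11.31, 11.43 and 11.57 in Namalwa (-6.06 ± 0.34, 66.5-fold, adjusted p = 8.87e-11). MX1, a GTPase that blocks viruses, had 5.65, 5.64 and 5.36 in Raji and 10.66, 10.28 and 10.62 in Namalwa (-4.97 ± 0.21, 31.4-fold), and its neighbour MX2 was 22.4-fold lower in Raji (-4.49 ± 0.16). IFITM1, a membrane protein that hinders viral entry, had 6.73, 6.83 and 6.83 in Raji and 11.12, 11.07 and 10.55 in Namalwa (-4.12 ± 0.16, 17.3-fold). All Raji values of these 4 genes lay below the median of all gene values and all Namalwa values above it. SAMD9L (-5.37 ± 0.28) and its neighbour SAMD9 (-3.53 ± 0.25), IFI27 (-3.78 ± 0.20), IFITM2 (-2.64 ± 0.22) and IRF9, the DNA-binding subunit of the interferon-activated complex (-1.79 ± 0.16), were lower in Raji as well. IFITM1, IFITM2 and IFITM3 have similar sequences and may share signal, and IFITM3 did not pass (-0.14 ± 0.26).

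The shift did not cover the whole list. IFI6 had 9.03, 9.09 and 8.54 in Raji and 8.85, 8.95 and 8.35 in Namalwa and did not pass (0.17 ± 0.24, adjusted p = 0.747). ISG15 (-0.68), IRF7 (-0.41), OAS3 (0.01), RSAD2 (0.07) and IFIT2 (-0.16) did not pass either. LGALS3BP, a secreted glycoprotein (2.24 ± 0.16), PARP9 (1.09 ± 0.28) and BST2, or tetherin (0.84 ± 0.14), were higher in Raji. In L428+M, the means of MX2 (10.11), IFITM1 (11.56) and SAMD9L (11.25) were above those in Namalwa. The L428+M means of IFI44L (10.43) and MX1 (8.35) lay between those of Raji and Namalwa, and that of IFI27 (5.96) was close to Raji.

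**Figure D3:**
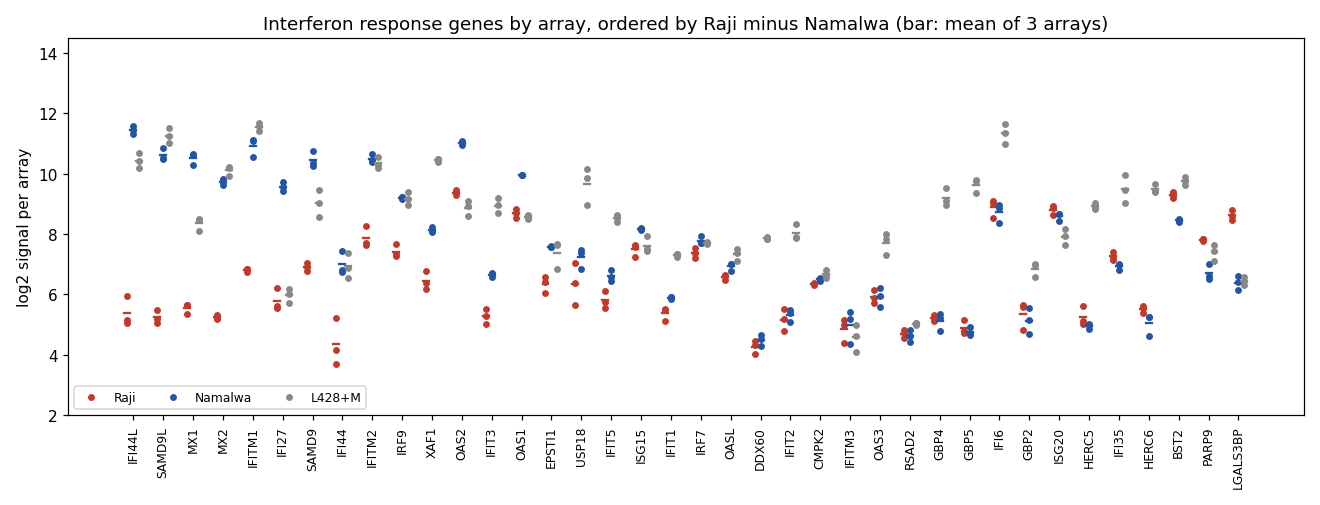
Log2 signal per array (y axis) of the 38 measured interferon response genes (x axis), ordered from the most negative to the most positive Raji minus Namalwa difference, in Raji (red), Namalwa (blue) and L428+M (grey), 3 arrays each, with a bar at the mean. From IFI44L to IRF9 all red points lie below the blue ones, in the middle of the row the colours overlap, and BST2, PARP9 and LGALS3BP at the right have red above blue.

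The promoters of 3 genes lower in Raji and of IFI6, which did not pass, are shown because all 4 hold the short repeat that interferon-activated factors are known to bind. They are printed 5′ to 3′ from RefSeq (GRCh38.p14), 250 bases before to 50 after the start, with matches to the interferon element in capitals. The element was taken as GAAA, 2 bases of any kind and GAAA again, searched on both strands. IFI44L is at chr1:78620198-78620497 on the plus strand, MX1 at chr21:41420308-41420607 on the plus strand, IFITM1 at chr11:313790-314089 on the plus strand and IFI6 at chr1:27672143-27672442 on the minus strand.
IFI44L: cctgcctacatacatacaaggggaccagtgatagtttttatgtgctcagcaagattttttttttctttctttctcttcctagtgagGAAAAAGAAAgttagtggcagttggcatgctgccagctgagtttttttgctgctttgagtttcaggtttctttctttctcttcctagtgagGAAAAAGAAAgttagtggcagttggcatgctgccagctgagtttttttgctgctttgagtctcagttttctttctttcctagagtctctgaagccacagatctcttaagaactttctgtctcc
MX1: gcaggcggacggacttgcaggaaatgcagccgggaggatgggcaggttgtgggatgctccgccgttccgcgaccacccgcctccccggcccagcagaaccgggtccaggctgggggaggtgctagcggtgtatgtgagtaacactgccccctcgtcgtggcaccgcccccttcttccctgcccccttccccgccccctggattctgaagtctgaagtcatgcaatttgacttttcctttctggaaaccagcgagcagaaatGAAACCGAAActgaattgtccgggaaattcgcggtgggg
IFITM1: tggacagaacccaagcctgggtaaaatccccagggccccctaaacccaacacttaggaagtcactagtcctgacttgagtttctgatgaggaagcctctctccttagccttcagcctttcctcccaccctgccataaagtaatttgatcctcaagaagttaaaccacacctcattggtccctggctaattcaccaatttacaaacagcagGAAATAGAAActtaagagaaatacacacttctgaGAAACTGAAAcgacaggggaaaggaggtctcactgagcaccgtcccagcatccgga
IFI6: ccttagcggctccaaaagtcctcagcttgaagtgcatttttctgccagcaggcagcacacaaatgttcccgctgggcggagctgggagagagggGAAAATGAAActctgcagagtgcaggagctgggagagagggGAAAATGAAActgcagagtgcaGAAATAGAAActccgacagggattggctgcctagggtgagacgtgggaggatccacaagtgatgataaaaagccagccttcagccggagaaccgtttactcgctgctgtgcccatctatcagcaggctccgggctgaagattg
The element matched 2 sites for IFI44L, 1 for MX1, 2 for IFITM1 and 3 for IFI6. It was found in 3.57% of 35116 promoters of this length and in 20 of 29 promoters of the interferon list (69%). Members lower in Raji held it in 10 of 14 promoters (71.4%) and members that did not pass in 8 of 12 (66.7%). These 2 shares were close to each other.

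Sensors of foreign nucleic acid, many of them interferon-inducible, differed in both directions. Of 22 measured, 7 were higher in Raji (31.8%, against 7.74% of all genes) and 5 lower (22.7%, against 11.5%, or 8 genes with the replicate block). AIM2, a sensor of DNA in the cytoplasm, had 9.41, 9.25 and 9.02 in Raji and 6.71, 7.08 and 6.91 in Namalwa (2.32 ± 0.25). The Toll-like receptors TLR1 (2.00 ± 0.17) and TLR3 (1.84 ± 0.22) were higher too. The restriction factors TRIM22 (-2.17 ± 0.17) and TRIM5 (-1.51 ± 0.15) and the RNA-activated kinase EIF2AK2 (-1.62 ± 0.16) were lower. Among 33 cytokine receptors and JAK-STAT genes, 5 were higher in Raji (15.2%, against 7.74%) and 9 lower (27.3%, against 11.5%), the second count being 4 without Raji replicate 1 or with array medians subtracted and 5 without Namalwa replicate 1 or replicate 2. The chains of the interleukin-2 receptor differed in opposite directions. The alpha chain IL2RA had 6.48, 6.19 and 6.68 in Raji and 10.18, 10.15 and 10.12 in Namalwa (-3.70 ± 0.16, 13-fold lower), while the common gamma chain IL2RG had 11.82, 11.86 and 12.02 in Raji and 9.62, 9.49 and 9.72 in Namalwa (2.29 ± 0.14, 4.89-fold higher). IL27RA (-1.30 ± 0.18) and IL10RB (-1.18 ± 0.16) were lower in Raji, and IL6ST (1.28 ± 0.22) and IL4R (1.25 ± 0.15) were higher.

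Of 31 proliferation genes 3 were higher in Raji (9.68%, against 7.74% of all genes) and 1 lower (3.23%, against 11.5%), and no passing member was 2-fold apart. Without the 2 arrays numbered 3, 1 was higher and none lower, and without Namalwa replicate 2 none was lower. Among 29 MYC targets and ribosome biogenesis genes, 3 were higher (10.3%, near the 7.74% of all genes) and 1 lower (3.45%, against 11.5%). The first count was 9 with the replicate block, 8 with array medians subtracted, 7 with quantile normalization and 1 without Namalwa replicate 2. The MYC antagonist MXD1 was the lower one (-1.49 ± 0.21), and the ribosome factor NOP16 was higher (0.87 ± 0.22). Of 26 cyclins, cyclin-dependent kinases and inhibitors, 5 were higher (19.2%, against 7.74% of all genes) and 2 lower (7.69%, against 11.5%, or 6 genes with the block). The first count was 2 or 3 without Raji replicate 2 or 3 or Namalwa replicate 1 or 3. The phosphatase CDKN3 was higher in Raji (1.60 ± 0.25), and the retinoblastoma protein RB1 (-0.89 ± 0.15) and cyclin E1 (CCNE1, -0.85 ± 0.16) were lower. The inhibitors CDKN1A (-0.69 ± 0.25, adjusted p = 0.0613) and CDKN2A (-0.44 ± 0.33, adjusted p = 0.453) did not pass. With the replicate block both did, at adjusted p = 0.00134 and 0.0117. Their values overlapped between the lines, and replicate 3 was the lowest in each line.

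Among 30 BCL2 family and death regulators, 2 were higher in Raji (6.67%) and 4 lower (13.3%, or 7 genes with the block), shares near the 7.74% and 11.5% of all genes. The first count was 1 without any 1 of Raji replicates 1 to 3, Namalwa replicate 1 or Namalwa replicate 2. The death inducer BCL2L11, or BIM, had 10.43, 10.28 and 10.02 in Raji and 9.13, 8.85 and 8.86 in Namalwa (1.30 ± 0.16). The survival protein BCL2 had 8.41, 8.31 and 8.34 in Raji and 9.64, 9.54 and 9.37 in Namalwa (-1.16 ± 0.19). HRK, a death inducer (-1.37 ± 0.14), and APAF1, the core of the apoptosome (-1.14 ± 0.15), were lower as well, and MCL1 did not pass (0.01 ± 0.16, with a sign that changed when single arrays were left out). Of 27 p53 target genes 5 were higher (18.5%, against 7.74%) and 4 lower (14.8%, against 11.5%). FAS, the ribonucleotide reductase subunit RRM2B (1.0 ± 0.12) and the DNA repair factor DDB2 (0.78 ± 0.17) were higher, and EDA2R (-1.89 ± 0.18), TP53INP1 (-1.57 ± 0.19) and GADD45A (-0.92 ± 0.22) were lower.

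Detoxifying enzymes were more often lower in Raji than higher. Of 33 glutathione and xenobiotic enzymes, 10 were lower in Raji (30.3%, against 11.5% of all genes), 8 of them at least 2-fold, and 1 was higher (3.03%, against 7.74%). The median of the list was near 0 (-0.02, and above 0 with array medians subtracted). MGST1 had 3.86, 4.06 and 3.88 in Raji and 8.92, 9.12 and 9.83 in Namalwa (-5.36 ± 0.21, 41-fold). GSTP1, the main glutathione transferase of many tumours, had 7.84, 7.87 and 8.11 in Raji and 12.96, 12.95 and 12.54 in Namalwa (-4.88 ± 0.26, 29.4-fold), and the aldehyde dehydrogenase ALDH2 was 10.3-fold lower in Raji (-3.37 ± 0.24). GSTM1, GSTM2 and GSTM4 were lower (-3.27, -2.30 and -1.36), but they are near-identical copies whose signals can mix. The quinone reductase NQO2 was the member higher in Raji (1.93 ± 0.15).

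Of 24 heat shock and unfolded protein response genes 6 were lower in Raji (25%, against 11.5% of all genes) and 1 higher (4.17%, against 7.74%). The higher one, the chaperone HSPA8 (0.40 ± 0.12), did not pass without Raji replicate 1 or 3 or Namalwa replicate 1 or 2. Those lower included the stress kinase relative TRIB3 (-1.42 ± 0.27), XBP1 and HSPA5, the main chaperone of the endoplasmic reticulum (-0.84 ± 0.17). Of 27 glycolysis and hypoxia genes 3 were higher (11.1%, or 5 genes with either rescaling) and 3 lower (11.1%, or 5 genes with the block), near the 7.74% and 11.5% of all genes. BNIP3, ENO2 (-1.32 ± 0.19) and VEGFA (-0.72 ± 0.14) were lower in Raji, whereas HIF1A, the oxygen-regulated factor that is known to act on all 3, was higher (1.47 ± 0.14). HIF1A had 12.08, 12.14 and 12.24 in Raji and 10.52, 10.77 and 10.78 in Namalwa. Its 50 nearest measured genes on chromosome 14 had a median difference of 0.75, and their part in the result was not tested. The glycolytic enzyme LDHA did not pass (-0.04 ± 0.13).

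Among 33 enzymes of DNA methylation and chromatin, 9 were lower in Raji (27.3%, against 11.5% of all genes, or 17 genes with the block and 14 with the 6 arrays alone) and 3 higher (9.09%, against 7.74%, or 1 gene without Raji replicate 1). TET2, which oxidises methylated cytosine, had 6.98, 7.27 and 7.32 in Raji and 9.94, 9.90 and 10.20 in Namalwa (-2.82 ± 0.20, 7.08-fold). TET1 (-2.52 ± 0.21) and the DNA methyltransferase DNMT3A (-0.89 ± 0.14) were lower too, and the histone deacetylase HDAC7 was higher (1.73 ± 0.21). Zinc finger genes named ZNF, mostly repressors of transcription, had 108 of 495 lower (21.8%, against 11.5%) and 26 higher (5.25%, against 7.74%), with a median of -0.13. With array medians subtracted, 89 were lower and 35 higher. ZNF385B (-4.21 ± 0.17) and ZNF362 (-3.56 ± 0.18) were the 2 members with the largest difference in favour of Namalwa, and ZNF860 (3.73 ± 0.18) and ZNF804A (3.24 ± 0.20) in favour of Raji.

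Of 26 genes typical of Hodgkin cells 4 were higher in Raji (15.4%, against 7.74% of all genes) and 2 lower (7.69%, against 11.5%, or 1 gene without Raji replicate 3 or Namalwa replicate 1), MET (5.57) and the receptor NOTCH1 (-1.72 ± 0.26) being the extremes. MET had 9.71, 9.56 and 10.21 in Raji and 4.31, 3.99 and 4.46 in Namalwa. Of 24 HOX genes none was higher (against 7.74% of all genes), and 1 was at an unadjusted limma p below 0.05. Lower were 2 (8.33%, against 11.5%), and neither passed without Raji replicate 3 or Namalwa replicate 3. Of 27 cancer-testis genes, which are normally confined to germ cells, 1 was higher (3.7%, against 7.74% of all genes). This count was 0 to 2 when single arrays were left out and 4 with array medians subtracted. None was lower (against 11.5%), also at an unadjusted limma p below 0.05. None of 42 protocadherin genes named PCDH passed limma in either direction, against 19.2% of all genes. At an unadjusted limma p below 0.05, 2 were higher and 2 lower, and with the replicate block 2 were lower.

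**Figure D4:**
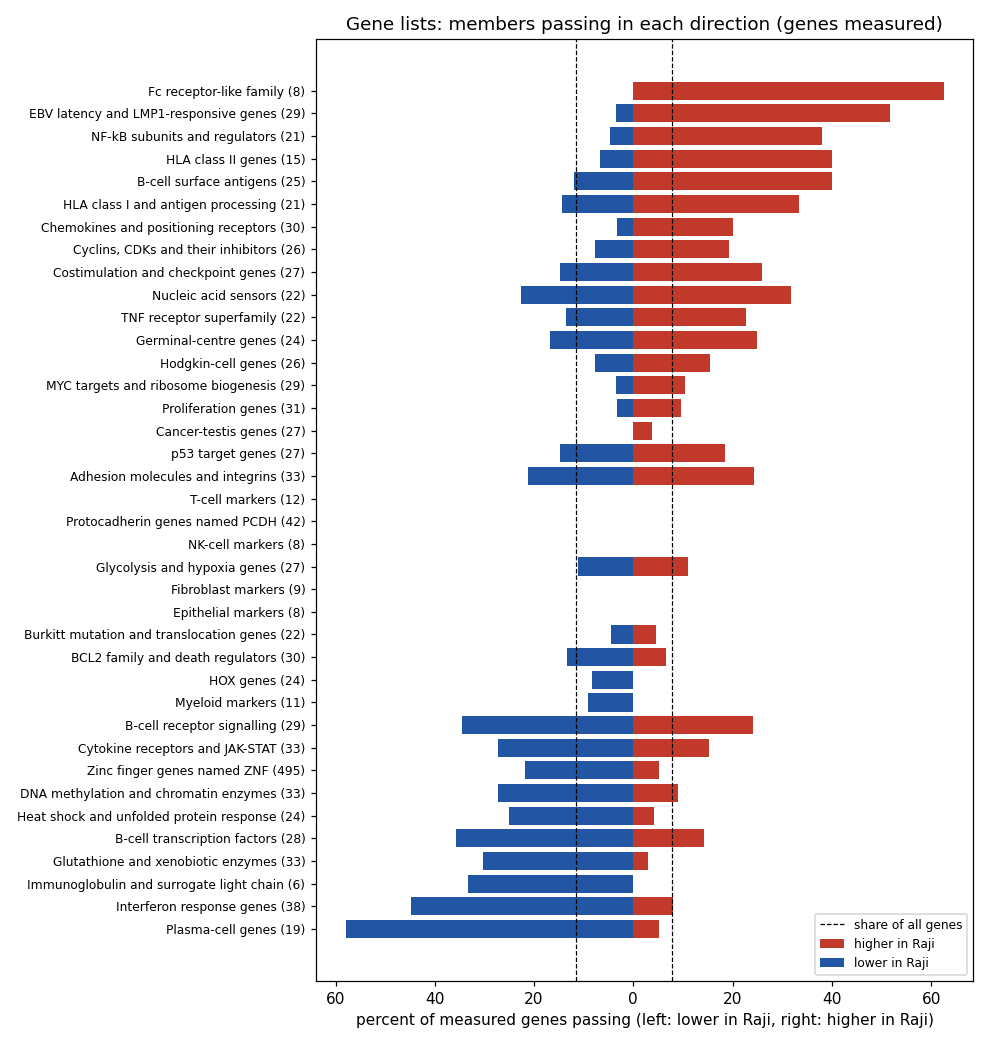
Percent of the measured members of each gene list that passed, higher in Raji to the right (red) and lower in Raji to the left (blue), with the number of genes measured in brackets and the shares of all genes (7.74% and 11.5%) as dashed lines. The Fc receptor-like family (62.5%) and the EBV and LMP1 list (51.7%) extend farthest to the right, and the plasma-cell list (57.9%) and the interferon list (44.7%) farthest to the left.

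The array also held probe sets for 173 microRNA genes, of which 2 were higher in Raji (1.16%, against 7.74% of all genes) and 5 lower (2.89%, against 11.5%). A gene-level signal of this kind reads the precursor transcript and not the mature microRNA. MIR21, named here after its values were seen, had 9.51, 8.99 and 9.35 in Raji and 5.98, 5.64 and 5.85 in Namalwa (3.46 ± 0.52, 11-fold, adjusted p = 5.56e-05), with no overlap. VMP1, the gene within which MIR21 lies, had 11.16, 11.18 and 10.81 in Raji and 10.37, 11.07 and 10.34 in Namalwa and did not pass (0.46 ± 0.17, adjusted p = 0.0761, or 0.0255 with the replicate block). The main mature product, hsa-miR-21-5p, is a microRNA known to be abundant in lymphoid tumours. It is printed 5′ to 3′ from RefSeq (GRCh38.p14, chr17:59841273-59841294, plus strand) with its seed, bases 2 to 8, in capitals.
hsa-miR-21-5p: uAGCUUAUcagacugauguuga

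Differences were unevenly spread over the chromosomes. On chromosome 14, 32.4% of tested genes passed, against 19.2% of all genes, with 18.4% higher in Raji and 14% lower. Chromosome 3 had 16.8% higher and chromosome 6 had 15.8% higher, against 7.74% of all genes, while 1.71% of chromosome 16 genes were higher and 14.1% lower. Within chromosomes, long runs of neighbouring genes leaned one way. Over 861 overlapping runs of 50 neighbouring genes with above-median signal, the median difference of a run lay between -0.79 and 0.90. On chromosome 14, the run from VCPKMT to PPP2R5E had a median of 0.90, with 34 of 50 genes higher in Raji and 1 lower, and the run from ANGEL1 to GLRX5 had a median of -0.79, with 2 higher and 33 lower. On chromosome 6, the run from DUSP22 to E2F3 had a median of 0.90, with 36 higher and 5 lower. On chromosome 3, the run from DUSP7 to FOXP1 had a median of 0.77, with 39 higher and 1 lower, and the run from ECE2 to FYTTD1 one of -0.58, with 26 lower and none higher. On chromosome 11 the medians of all runs lay between -0.06 and 0.13.

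**Figure D5:**
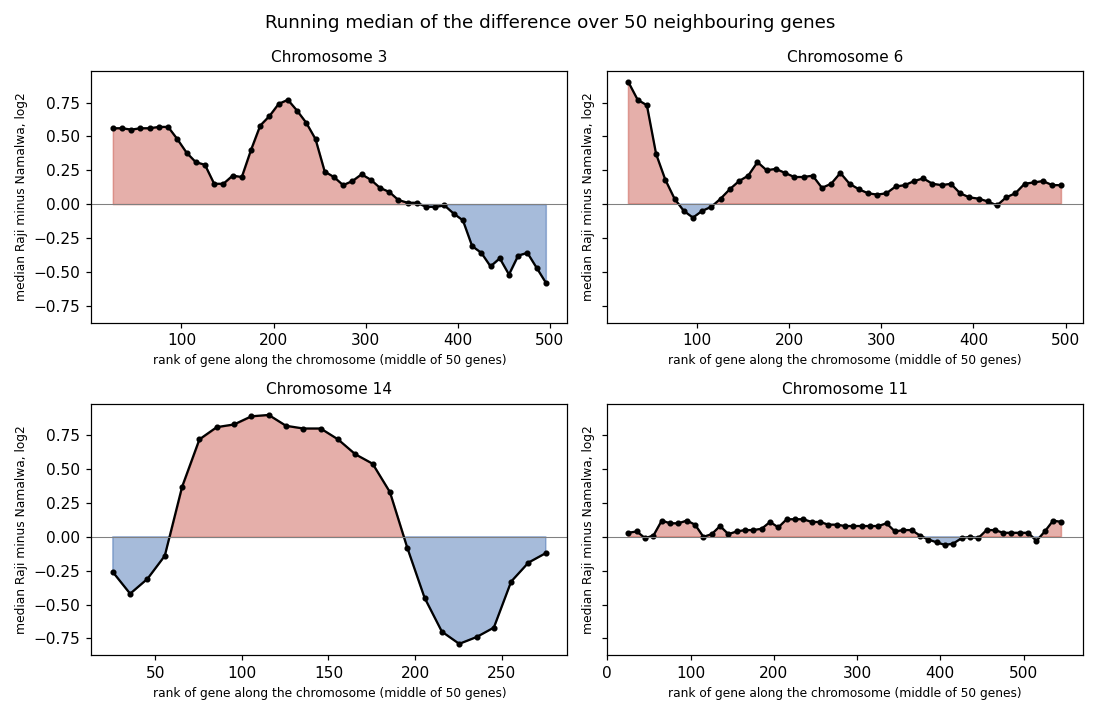
Running median of Raji minus Namalwa (y axis, log2) over 50 neighbouring genes with above-median signal, plotted at the middle rank of each run along chromosomes 3, 6, 14 and 11 (x axis, gene rank), with red above 0 and blue below. Chromosome 14 rises to 0.90 and falls to -0.79, chromosome 6 starts at 0.90, chromosome 3 goes from above 0 to -0.58, and chromosome 11 stays between -0.06 and 0.13.

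Several of the genes above lie in such runs, and the values stand side by side without a test of one against the other. CDKN3 (1.60, with a median of 0.89 for its neighbours), NQO2 (1.93 and 0.87), CD83 (1.98 and 0.77), E2F3 (0.73 and 0.65) and NFKBIA (0.69 and 0.62) differed in the direction of their neighbours. IFI27 (-3.78 and -0.70), SEL1L (-1.54 and -0.68) and TCL1A (-1.62 and -0.48) did so in favour of Namalwa. IRF4 went against its neighbours, at -4.05 beside a median of 0.90, and so did SERPINA9, at 3.00 beside -0.67. For MS4A1, CR2, LEF1, BNIP3, MX1 and CCR7 the neighbours' median lay between -0.32 and 0.07. For the interferon list the median of the neighbours' medians was -0.09, and for the EBV and LMP1 list it was 0.02. Other lists lay farther from 0. The value was -0.35 for the Fc receptor-like family, -0.28 for immunoglobulin and surrogate light chain, -0.17 for the plasma-cell list and 0.24 for the class II list.

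Each Burkitt line was also set against L428+M with the same fit, the comparisons sharing the 3 L428+M arrays. Raji differed from L428+M in 5749 genes (31.2%), 2740 of them at least 2-fold (14.9%), and Namalwa in 6242 genes (33.9%), 2979 of them at least 2-fold (16.2%). Of the 499 genes at least 2-fold higher in Raji than in Namalwa, L428+M had a mean nearer to Raji for 255 (51.1%), and of the 932 lower in Raji it was nearer to Raji for 510 (54.7%). The genes with the largest differences fell on both sides. TES, VIM, MET, AK4 and NETO2 were bright in Raji and L428+M and low in Namalwa, BNIP3, S100A10 and EPB41L2 were bright in Namalwa and L428+M and low in Raji, and MS4A1 and CR2 were bright in Raji alone of the 3 groups. APP, LIN28B, IL2RA and VPREB1 had L428+M means of 5.49, 3.53, 6.93 and 4.59, close to those in Raji.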

How the data were processed

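Expression was measured on 18 Affymetrix arrays, 3 for each of 6 groups taken from the labels. Each probe set has a log2 expression value that the authors made with RMA and Partek, per the submitters' processing notes. Versions and the array build are not given in the sources used here. Of 33297 probe sets, 19460 carry 1 gene symbol, 1754 several and 12083 are unnamed here. The brightest on average was kept for 769 genes with more than 1, leaving 18417 genes. Probe sets matched to RefSeq (GRCh38.p14) numbered 19428, with 0 symbols changed, and that assembly gave names, gene order and sequences.

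Differences were estimated with limma 3.58.1 in R 4.3.3 (lmFit with 1 mean per group over all 18 arrays, eBayes without trend, 12 residual and 6.1 prior degrees of freedom), two-sided, with Benjamini-Hochberg adjustment over 18417 genes, and the script was tested on simulated data. The number of arrays limits the precision, and an exact permutation test of 3 arrays against 3 cannot go below p = 0.10. Python 3.11.15, pandas 2.3.3 and numpy 2.4.6 were used for tables and matplotlib 3.10.9 for plots. Same-numbered arrays of the 2 lines deviated together from their group means across genes (correlations 0.372, 0.325 and 0.541). Differently numbered arrays correlated at 0.274 (Raji 2 with Namalwa 1) and 0.198 (Raji 1 with Namalwa 2) and at -0.338 to -0.426 where 1 of the 2 was replicate 3, so that mainly replicate 3 was set apart. As every same-numbered pair was above 0.1, the replicate number was also fitted as a block, and blocked values are given where they change a call. The pairing rests on these values and the shared numbers, since the labels name no shared culture or day.

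The comparison, 38 gene lists and the naming rule were chosen with earlier results of these data known. The rule takes the 15 largest differences per direction among passing genes without overlap whose higher mean exceeds the median of all values, up to 3 passing members per list and direction, and preset genes of B cells, plasma cells, the cell cycle and Hodgkin cells, whatever their result. Other list members, neighbouring genes and 1 microRNA gene were named after their values were seen. ZNF and PCDH genes formed 2 further lists by symbol. Runs of neighbours use genes whose mean is above the median. For 3 arrays the title names L425-PAX5 and the cell line field L428-PAX5, and the field was followed.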

Additional observations from a re-analysis of the deposited data

How the results depend on the processing

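The number of passing genes stayed within 1.5 times of 3545 under every alternative run except array weights, which gave 5747 (2529 higher in Raji and 3218 lower). That estimate stopped before it converged and gave 1 L428-PAX5 array a weight of 15.2. With the replicate block 4698 genes passed (2024 higher, 2674 lower, 1437 at least 2-fold), all 3545 among them, and of the genes named by the rule the block changed the call of BCL6, CDKN1A and CDKN2A and no other. The 6 Burkitt arrays alone gave 4121, array medians subtracted 3665, quantile normalization 3671 (1729 higher, 1942 lower), trend and robust settings 3510, and the mean of probe sets 3549. Leaving out 1 replicate gave 2854 to 3114 passing genes, 1110 to 1257 higher, 1741 to 1913 lower and 1410 to 1479 at least 2-fold. Leaving out both arrays numbered 3, chosen after seeing the data, gave 2650. Of the 1431 genes at least 2-fold apart, 1411 to 1431 passed in the same direction under each alternative, except 1226 where dim genes were left out and 9646 genes were tested. The sign turned for 3 genes that had not passed: IGKC, at -0.20 with the mean of probe sets and between -0.02 (without Raji replicate 1) and 0.29 with 1 replicate left out, MCL1, between -0.06 and 0.08 with 1 replicate left out and below 0 without Raji replicate 1 (-0.06), Namalwa replicate 2 (-0.01) or Namalwa replicate 3 (-0.03), and TNFRSF8, at -0.02 without the 2 arrays numbered 3. The causes of these changes were not tested. Compressed signal near the floor limits what can be said of dim genes.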
